A study of Mus musculus with 6 samples.

Results

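Leukocyte genes were read in RNA from sorted glomerular endothelial cells (GEC), a preparation meant to hold endothelial cells only. The 55 genes were given as a list of leukocyte symbols, which was chosen with earlier results of these data known. It held 18 pan-leukocyte genes and 22 genes of mononuclear phagocytes (monocytes, macrophages and dendritic cells). The others were 7 genes of T cells, 3 of B cells, 3 of granulocytes and 2 of natural killer (NK) cells. Each gene was read by the probeset with the highest mean over the 6 arrays among probesets annotated to a single symbol. In all, 54 of the 55 had such a probeset, out of 19938 genes that did, and Lck, a T cell kinase, was not analysed here. The diabetic mice had the genotype Tie2-GFP/ DB/DB, so they lacked a working leptin receptor and were obese and diabetic (db/db, 3 arrays). The normal mice were Tie2-GFP/ +/+ (3 arrays). All were 7 months old and carried the Tie2-GFP transgene, in which the promoter of the endothelial receptor Tie2 drives green fluorescent protein. Glomeruli were collected on sieves, dissociated with trypsin, and the fluorescent cells were taken by FACS, with 1 Affymetrix Mouse Gene ST array per sample. The gate rests on the Tie2 promoter alone, and in mice Tie2 is also known from a subset of monocytes and macrophages. The labels call the samples biological replicates and do not say how many animals went into each.

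Leukocytes share a set of genes that other cells use little: the phosphatase CD45 (Ptprc), the beta-2 integrins with which they grip the vessel wall, and haematopoietic versions of the proteins that build the actin skeleton. Macrophages add receptors for growth factor, complement, antibody and bacterial products, T and B cells carry their antigen receptor complexes, and granulocytes are filled with the calcium-binding proteins S100a8 and S100a9. Macrophages gather in the glomeruli of diabetic kidneys, and endothelial cells are the surface they cross. Some genes first known from leukocytes, such as Lcp1 and Cd14, can also be used by other cells, so a single gene does not identify a leukocyte.

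The values were log2 probeset signal from 3.18 to 14.46, with array medians between 7.00 and 7.04, and the correlation between any pair of arrays lay between 0.954 and 0.971. A signal of 100 on the linear scale in at least 3 arrays, or 6.64 on the log2 scale, is the level that the study's methods ask for, and it is called the level of 100 below. All 15 endothelial markers reached it, as did 94 of 1194 olfactory and vomeronasal receptor genes (7.87%), which kidney cells are not expected to use. A value just over 100 therefore does not show expression by itself. Probes differ in how strongly they bind, so signals were compared between arrays and not between genes.

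The level of 100 was reached by 24 of the 54 measured leukocyte genes (44.4%), against 64.0% of all genes. By cell type, it was reached by 10 of 18 pan-leukocyte genes, 10 of 22 phagocyte genes, 2 of 6 T cell genes, 0 of 3 B cell genes, 1 of 3 granulocyte genes and 1 of 2 NK cell genes. Of the 24, 16 passed on all 6 arrays, 3 on 5, 3 on 4 and 2 on 3, and none passed through the arrays of 1 group alone. A signal of 200 in 3 arrays was reached by 8 leukocyte genes (14.8%), all of them pan-leukocyte or phagocyte genes, against 42.8% of all genes and 0.921% of the olfactory and vomeronasal receptors. A lower signal in such bulk samples can come from fewer cells of a type or from less RNA per cell, and these cannot be told apart.

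**Figure D1:**
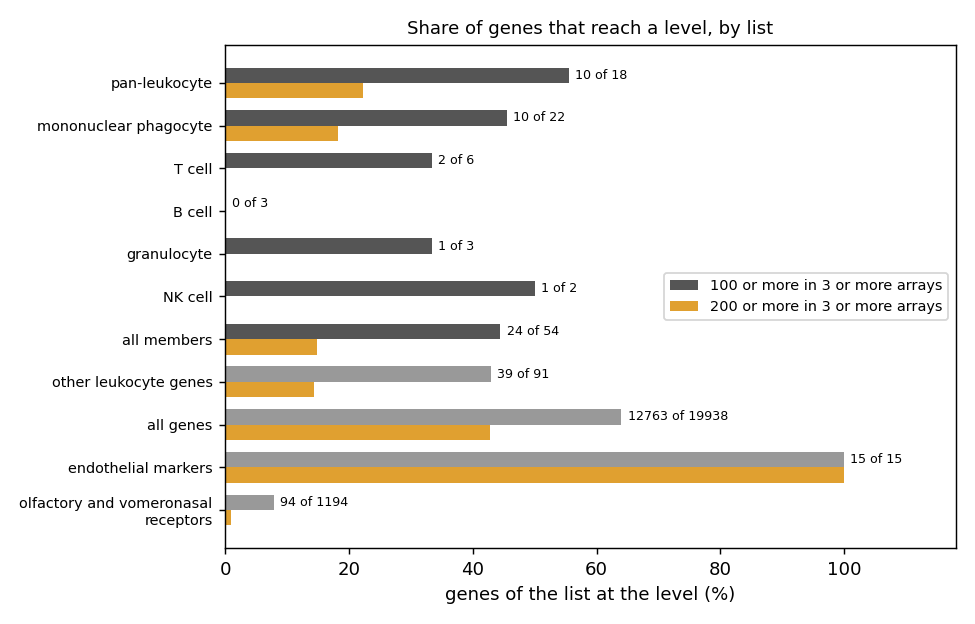
Percent of the genes of each list whose signal reached 100 (dark and grey bars, with the counts beside them) or 200 (orange bars) on the linear scale in at least 3 of the 6 arrays. The 54 measured leukocyte genes stood at 44.4% for the level of 100, between the olfactory and vomeronasal receptors (7.87%) and all genes (64.0%), while all 15 endothelial markers reached both levels.

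Pan-leukocyte genes that reached 200 in at least 3 arrays were Klhl6, Lcp1, Hcls1 and Cybc1. Klhl6, an adaptor of a cullin ubiquitin ligase known from B cell receptor signalling (probeset 10438445), had log2 signals of 11.10, 10.93 and 11.12 in db/db arrays, against 10.26, 10.25 and 10.10 in normal arrays. The db/db arrays all lay above the normal arrays, with a gap wider than the spread within either group. Lcp1, which encodes the actin-bundling protein L-plastin, had 9.75, 9.86 and 10.28 in db/db arrays, against 9.19, 9.58 and 9.53 in normal arrays, again with no overlap between groups. Hcls1, the haematopoietic relative of cortactin, had 9.57, 8.79 and 9.25 in db/db arrays, against 8.88, 8.86 and 8.62 in normal arrays. Here db/db replicate 2 lay among the normal arrays. Cybc1, a chaperone needed for the phagocyte NADPH oxidase, had 8.13, 7.98 and 8.28 in db/db arrays, against 8.13, 7.86 and 8.31 in normal arrays, and the groups overlapped fully.

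The other 6 pan-leukocyte genes at the level did not reach 200 in 3 arrays. Plek, the protein kinase C substrate pleckstrin of platelets and leukocytes, had 7.52, 7.32 and 7.24 in db/db arrays, against 7.04, 6.78 and 8.12 in normal arrays. Normal replicate 3 stood apart from the other normal arrays for this gene. Coro1a, an actin regulator of haematopoietic cells, had 7.59, 7.20 and 7.38 in db/db arrays, against 7.38, 6.93 and 7.31 in normal arrays. Cd37, a leukocyte tetraspanin, had 7.59, 7.26 and 7.01 in db/db arrays, against 7.29, 7.35 and 7.15 in normal arrays. In both genes db/db replicate 1 was the highest array and the groups overlapped. Rac2, a GTPase of haematopoietic cells that drives the oxidase and the actin skeleton, had 7.23, 7.12 and 7.62 in db/db arrays, against 7.00, 7.11 and 7.10 in normal arrays, so that the lowest db/db array exceeded the highest normal array by very little. Was, the Wiskott-Aldrich syndrome protein that starts actin branching, had 6.96, 6.85 and 6.92 in db/db arrays, against 6.80, 6.78 and 6.77 in normal arrays. All 6 of its values lay close together and the db/db arrays were the upper 3. Itgb2, the common chain of the beta-2 integrins, had 6.88, 6.69 and 6.70 in db/db arrays, against 6.53, 6.78 and 6.92 in normal arrays, and reached the level on 5 arrays.

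The remaining 8 pan-leukocyte genes stayed under the level. Ptprc, the gene of CD45 and the marker most often used to define a leukocyte, had 6.54, 6.06 and 6.38 in db/db arrays, against 6.53, 6.28 and 6.47 in normal arrays, under 6.64 on every array. Spi1, Itgal, Cd48 and Cd52 also did not reach 100 on any array, that is, the transcription factor PU.1, the alpha chain of LFA-1, an immunoglobulin-family surface protein and a small lymphocyte and monocyte glycoprotein. Laptm5, a lysosomal membrane protein, and Lcp2, an adaptor of antigen receptor signalling, reached 100 on 1 array each, in both cases db/db replicate 1. Cd53, a tetraspanin, reached it on 2 arrays, db/db replicates 1 and 3.

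Of the phagocyte genes at the level, Tyrobp, the signalling adaptor DAP12 of myeloid and NK cell receptors, varied most. Its log2 signals were 10.04, 7.45 and 8.83 in db/db arrays, against 9.03, 8.68 and 8.79 in normal arrays. The db/db arrays spanned a range of 2.59 on the log2 scale, enclosing all 3 normal arrays, with db/db replicate 1 highest and db/db replicate 2 lowest. Aif1, the calcium-binding protein IBA1 of macrophages (probeset 10450484), had 8.73, 7.82 and 8.36 in db/db arrays, against 6.82, 7.81 and 7.11 in normal arrays. Every db/db array was above every normal array, but db/db replicate 2 exceeded normal replicate 2 by 0.0031 only. Cd68, a lysosomal glycoprotein of macrophages (probeset 10387536), had 7.95, 7.59 and 6.91 in db/db arrays, against 6.63, 6.72 and 6.81 in normal arrays. The db/db arrays were the upper 3 and differed more among themselves than the normal arrays did. Cx3cr1, the receptor of the chemokine fractalkine (probeset 10597743), had 7.88, 8.04 and 8.07 in db/db arrays, against 7.74, 7.73 and 7.66 in normal arrays, with little spread within either group and no overlap. Cd14, the co-receptor for bacterial lipopolysaccharide (probeset 10458382), had 8.30, 8.38 and 8.31 in db/db arrays, against 8.70, 9.97 and 8.43 in normal arrays. The db/db arrays were the lower 3, and normal replicate 2 stood well above the rest.

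The complement gene C1qa, whose product forms C1q together with those of C1qb and C1qc, had log2 signals of 8.27, 7.08 and 7.09 in db/db arrays, against 6.81, 7.23 and 7.07 in normal arrays. Only db/db replicate 1 stood out. C1qc had 7.08, 6.59 and 6.82 in db/db arrays, against 6.70, 6.95 and 6.43 in normal arrays. C1qb reached 100 on db/db replicate 1 alone. Fcgr3, a low-affinity receptor for antibody, had 6.62, 6.90 and 6.86 in db/db arrays, against 6.68, 6.93 and 6.57 in normal arrays. Lyz1, a lysozyme gene that is nearly identical to Lyz2, so that signal of one may be read by probes of the other, had 7.51, 7.81 and 7.31 in db/db arrays, against 7.40, 7.41 and 7.75 in normal arrays. Neither gene separated the groups. Mpeg1, the pore-forming perforin-2 of macrophages, had 7.29, 6.47 and 6.88 in db/db arrays, against 6.47, 6.47 and 7.31 in normal arrays and reached the level on 3 arrays, 2 of them db/db.

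The phagocyte genes under the level included the receptors most used to define a macrophage. Csf1r, the receptor of the macrophage growth factor CSF1, had 6.19, 6.23 and 6.32 in db/db arrays, against 6.22, 6.19 and 6.11 in normal arrays. Adgre1, the F4/80 antigen, had 5.45, 5.24 and 5.28 in db/db arrays, against 5.25, 5.40 and 5.31 in normal arrays. Both differed by at most 0.22 on the log2 scale between the highest and the lowest of the 6 arrays. Itgam, Itgax, Ccr2, Mrc1, Cd163 and Ms4a7 likewise did not reach 100 on any array, among them the integrin chains CD11b and CD11c, the receptor of the chemokine CCL2 and the scavenger receptors CD206 and CD163. Fcer1g, the common signalling chain of Fc receptors, reached it on db/db replicate 1 alone, and Fcgr1, the high-affinity antibody receptor, on db/db replicate 3 alone. Lyz2, the lysozyme of macrophages and granulocytes, had 7.41, 6.82 and 6.61 in db/db arrays, against 6.21, 6.19 and 6.63 in normal arrays, over 100 on db/db replicates 1 and 2.

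Of the 14 measured T cell, B cell, granulocyte and NK cell genes, 4 reached the level and none reached 200 in 3 arrays. Cd3e, a chain of the T cell receptor complex, had 7.17, 7.06 and 7.18 in db/db arrays, against 7.03, 7.59 and 7.12 in normal arrays. Cd8a, the co-receptor of cytotoxic T cells, had 6.58, 6.65 and 6.69 in db/db arrays, against 6.73, 6.95 and 6.42 in normal arrays. In both, normal replicate 2 was the highest array and the groups overlapped. The partner chains Cd3d and Cd3g, and with them Cd4 and Cd2, did not reach 100 on any array, so the CD3 complex was represented at the level by 1 chain of 3. The B cell receptor chain Cd79a had 4.99, 5.20 and 5.23 in db/db arrays, against 5.57, 5.57 and 5.26 in normal arrays, under the level throughout, as were Cd79b and Ms4a1, which encodes CD20. S100a9 had 7.12, 6.30 and 7.37 in db/db arrays, against 7.31, 6.66 and 7.71 in normal arrays, while its partner S100a8, with which it forms calprotectin, had 5.25, 4.90 and 4.88 in db/db arrays, against 5.94, 5.12 and 5.47 in normal arrays and did not reach the level. Csf3r, the receptor of the granulocyte growth factor, was under 100 on all arrays. Nkg7, a granule protein of NK and cytotoxic T cells, had 6.53, 6.72 and 6.71 in db/db arrays, against 6.63, 6.74 and 6.56 in normal arrays and Klrb1c, the NK1.1 antigen, was under 100 throughout.

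Members near the threshold were little separated by it. Nkg7 and Mpeg1 passed on 3 arrays, whereas Lyz2 and Cd53 missed with 2 each. Cd53 had 6.68 and 6.83 on db/db replicates 1 and 3 on the log2 scale and was under 6.64 on the other 4 arrays. Of the 30 members under the level, 23 did not reach 100 on any array, 5 reached it on 1 and 2 on 2, and db/db replicate 1 was among those arrays for 6 of these 7. Over all 30, log2 signals lay between 4.21 and 7.41.

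**Figure D2:**
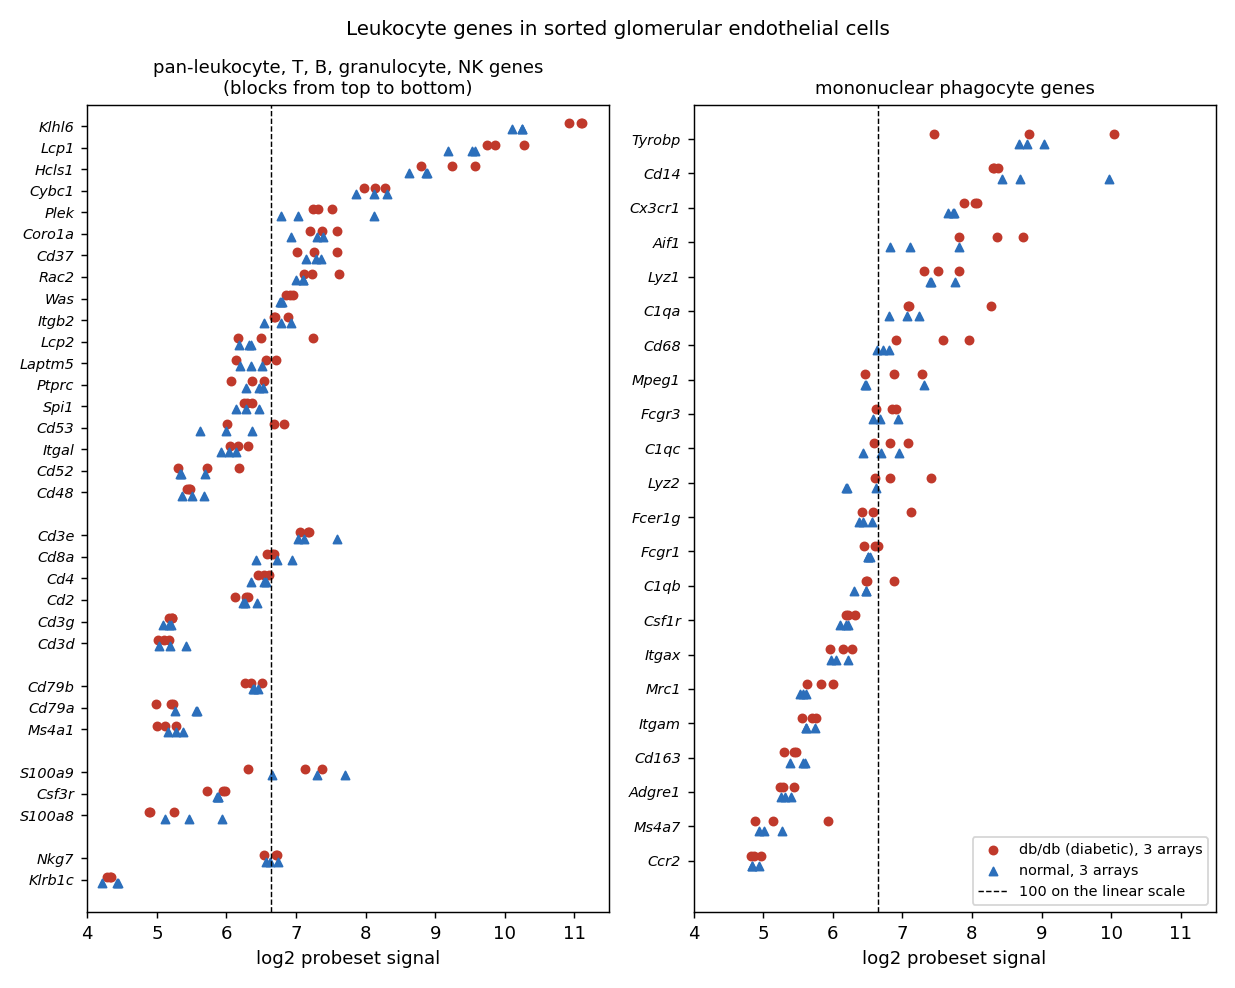
Log2 probeset signal (horizontal axis) of each measured leukocyte gene (1 row each), with a point for each of the 3 db/db arrays (red circles) and 3 normal arrays (blue triangles), and a dashed line at 100 on the linear scale. The defining genes Ptprc, Csf1r and Adgre1 lie left of the line on all arrays, while Klhl6, Lcp1, Hcls1, Tyrobp and Cd14 lie right of it on all arrays.

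To see whether leukocyte genes differed between diabetic and normal GEC, db/db and normal arrays were compared with limma over the 20661 probesets at the level of 100. No probeset passed a Benjamini-Hochberg adjusted p of 0.05 (0% called, smallest adjusted p = 0.203), 1320 had an unadjusted p under 0.05, and accordingly no leukocyte gene passed. The smallest adjusted p among leukocyte genes belonged to Klhl6, at 0.256. Its signal averaged 11.05 ± 0.10 in db/db GEC and 10.20 ± 0.09 in normal GEC on the log2 scale (SD, n = 3 each), a log2 change of 0.85 ± 0.10 (SE) or 1.80-fold, with an unadjusted limma p of 0.000149. Over the alternatives its adjusted p ran between 0.115 and 0.713, the highest value being without db/db replicate 3. Klhl6 was also the sole leukocyte gene past the thresholds of the methods' t-test, an unadjusted p under 0.05 with a change over 1.5-fold, which 313 probesets met, and none remained after Benjamini-Hochberg adjustment.

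Aif1 had the greatest difference in mean log2 signal, 8.30 ± 0.46 in db/db GEC and 7.25 ± 0.51 in normal GEC (SD, n = 3 each), a log2 change of 1.05 ± 0.34 (SE) with an adjusted limma p of 0.703. Cd68 averaged 7.48 ± 0.53 in db/db GEC and 6.72 ± 0.09 in normal GEC (SD, n = 3 each), a log2 change of 0.76 ± 0.27 (SE) with an adjusted limma p of 0.752. Neither change could be told from the spread between arrays once all probesets were considered. Lcp1 had a log2 change of 0.53 ± 0.18 (SE) with an adjusted limma p of 0.746, and Cx3cr1 one of 0.29 ± 0.09 (SE) with an adjusted limma p of 0.684. These 5 genes had unadjusted limma p-values under 0.05 in the direction of db/db, 20.8% of the 24, where 3.49% of all genes at the level did, and no leukocyte gene did so in the other direction, where 3.07% of all genes did. When 1 array was left out, the 5 became 2 to 4, with 2 left without db/db replicate 3 or without normal replicate 1. By the methods' t-test 3 leukocyte genes had an unadjusted p under 0.05, namely Klhl6, Cx3cr1 and Was, and Aif1, Lcp1 and Cd68 did not.

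The promoters of Aif1, Cd68 and Klhl6, the members at the level with the greatest positive changes, are shown because the transcription factor PU.1, the product of Spi1, is known to act on many myeloid and B cell genes through purine-rich sites around a GGAA core. Each is the RefSeq sequence of 300 bases, most of it before the start of transcription, in the GRCm38.p6 build, 5′ to 3′ on the strand of the gene, with GAGGAA or its reverse complement TTCCTC in capitals. Aif1 lies at chr17:35176003-35176302 on the minus strand, Cd68 at chr11:69666121-69666420 on the minus strand and Klhl6 at chr16:19983000-19983299 on the minus strand.
Aif1: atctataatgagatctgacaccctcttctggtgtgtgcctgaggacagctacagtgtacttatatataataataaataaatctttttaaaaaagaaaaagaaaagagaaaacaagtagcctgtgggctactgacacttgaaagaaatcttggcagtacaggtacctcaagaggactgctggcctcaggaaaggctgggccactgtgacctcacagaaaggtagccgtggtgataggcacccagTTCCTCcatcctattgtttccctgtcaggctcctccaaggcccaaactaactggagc
Cd68: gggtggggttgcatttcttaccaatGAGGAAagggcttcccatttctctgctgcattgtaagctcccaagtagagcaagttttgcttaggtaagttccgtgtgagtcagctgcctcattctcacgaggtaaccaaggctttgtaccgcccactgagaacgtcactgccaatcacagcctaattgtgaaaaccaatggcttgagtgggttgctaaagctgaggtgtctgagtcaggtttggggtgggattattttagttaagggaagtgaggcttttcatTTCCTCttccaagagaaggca
Klhl6: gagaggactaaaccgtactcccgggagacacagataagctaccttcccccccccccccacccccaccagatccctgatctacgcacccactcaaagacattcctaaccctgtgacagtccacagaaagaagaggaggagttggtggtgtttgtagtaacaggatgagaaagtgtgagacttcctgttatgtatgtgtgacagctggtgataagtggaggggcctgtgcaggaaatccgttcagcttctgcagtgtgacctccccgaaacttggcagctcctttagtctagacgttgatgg
The Aif1 window held 1 match, the Cd68 window 2 and the Klhl6 window none. Of the 55 leukocyte genes, 41 had a promoter in the table, and GAGGAA on either strand was found in 25 of them (61.0%), against 8446 of all 27025 genes (31.3%) and 6 of 11 endothelial markers with a promoter there (54.5%). Among members at the level it was found in 10 of 19 (52.6%). A match describes these letters only, and no match says nothing about the factor.

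The arrays of the 2 groups did not overlap for 8 of the 24 leukocyte genes at the level. In 7 of them (29.2%) all db/db arrays were above all normal arrays, namely Klhl6, Lcp1, Rac2, Was, Aif1, Cd68 and Cx3cr1, where 7.39% of all genes at the level were. In 1 (4.17%), Cd14, all db/db arrays were below, where 5.92% of all genes were. Cd14 averaged 8.33 ± 0.04 in db/db GEC and 9.03 ± 0.83 in normal GEC (SD, n = 3 each), a log2 change of -0.71 ± 0.41 (SE) with an adjusted limma p of 0.840. Without normal replicate 2 that change was -0.24, and after quantile normalisation the groups overlapped for both Cd14 and Aif1. Median centring made them overlap for Aif1 as well. Of the 15 endothelial markers, 6 had all db/db arrays above and 4 all below the normal arrays. With 3 against 3 arrays, an exact two-sided permutation test of 1 gene cannot give a p below 0.1.

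As a list, the 24 genes had a median log2 change of 0.10 (db/db minus normal), and 19 of them had the higher mean in db/db GEC, where the median of all 12763 genes at the level was 0.01 and 53.7% had the higher mean in db/db GEC. All 10 pan-leukocyte genes at the level had the higher mean in db/db GEC, with a median log2 change of 0.15, although Itgb2 turned to -0.010 after quantile normalisation and -0.0051 after median centring. For phagocyte genes it was 8 of 10, with a median of 0.13. Of the 4 T cell, granulocyte and NK cell genes at the level, Nkg7 alone had the higher mean in db/db GEC (0.01, turning to -0.016 after quantile normalisation and -0.0071 after median centring), and their median was -0.08. The median of the 24 was 0.26 without db/db replicate 2 and 0.05 without db/db replicate 1. It was 0.04 without normal replicate 1. Under the level, differences in mean log2 signal ran between -0.50 for S100a8 and 0.61 for Lyz2, with C1qb and Mrc1 higher on all db/db arrays (2 of 30, 6.67%, where 6.31% of all genes under the level were) and Cd79a lower on all of them (1 of 30, 3.33%, where 3.15% were). These shares are near those of all genes.

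**Figure D3:**
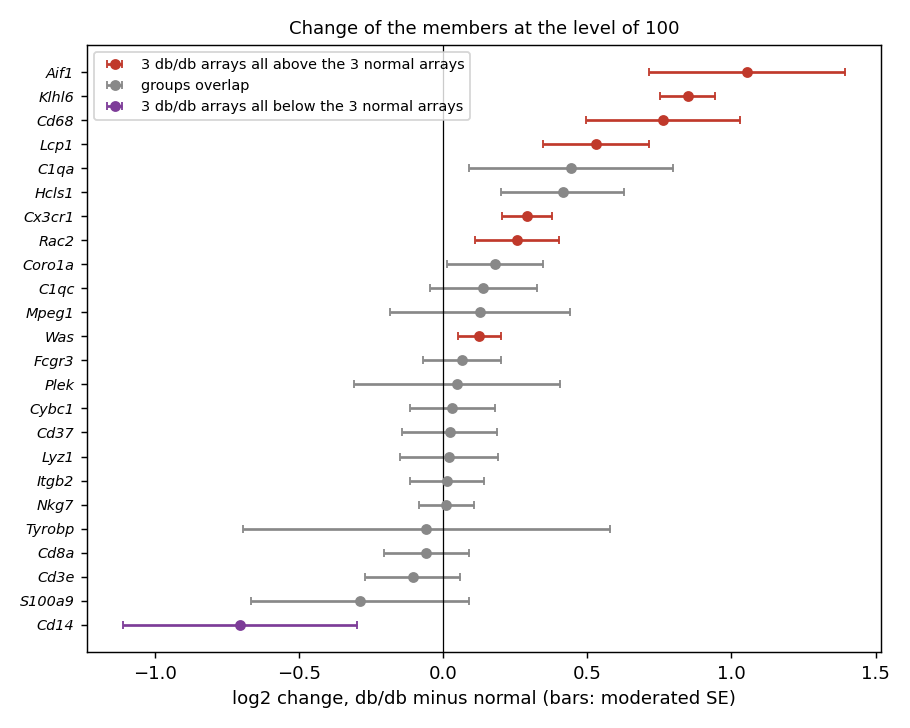
Log2 change (db/db minus normal, horizontal axis) of the 24 leukocyte genes at the level of 100, with the moderated standard error of limma as bars, in red where the 3 db/db arrays all lay above the 3 normal arrays, in purple where all lay below and in grey where they overlapped. Klhl6 (0.85 ± 0.10) has a short bar for its change, Tyrobp (-0.06 ± 0.64) the longest bar, and no gene passed the adjusted threshold.

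Leukocytes carried along in a sort would bring many of their genes at once and in different amounts to different arrays, so the members were also followed from array to array. Pan-leukocyte and phagocyte genes did not spread evenly over the arrays. Of these 40 genes at any level, 20 (50%) had their highest value on db/db replicate 1, an array on which 17.0% of all genes were highest. That comprised 12 of 22 phagocyte genes and 8 of 18 pan-leukocyte genes. Of the 40, 1 was highest on db/db replicate 2 and 10 on db/db replicate 3, and 0, 4 and 5 on normal replicates 1 to 3. Db/db replicate 1 was singled out after these counts were seen, and the use of genes at any level was also chosen after seeing the data. Among the 24 genes at the level, 9 (37.5%) were highest on db/db replicate 1, against 17.6% of all genes at the level. This count ran between 9 and 11 when any other array was left out. A gene highest on db/db replicate 1 stays so when another array is dropped, so the count could fall only through the level filter. Its range therefore does not test the pattern. Within the db/db group, replicate 1 was highest and replicate 2 lowest for 9 of the 20 pan-leukocyte and phagocyte genes at the level (45%), an order found in 18.9% of all genes at the level.

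The excess on db/db replicate 1 was large for a few genes and slight for most. Tyrobp was 2.59 higher on db/db replicate 1 than on db/db replicate 2 on the log2 scale. On db/db replicate 1 the 10 phagocyte genes at the level lay on average 0.43 above their own mean over the 6 arrays, against -0.12 on db/db replicate 2 and 0.01 on db/db replicate 3. On the normal arrays these averages were -0.24, 0.06 and -0.14. The pan-leukocyte genes at the level averaged 0.22, -0.01 and 0.17 on the db/db arrays, against -0.16, -0.19 and -0.02 on the normal arrays. Without db/db replicate 1 the log2 change of C1qa was 0.05 in place of 0.44, that of Cd68 0.53 in place of 0.76, and that of Tyrobp -0.69. Without db/db replicate 2 that of Tyrobp was 0.60.

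Not all leukocyte genes followed this array. Of the 14 measured T cell, B cell, granulocyte and NK cell genes 1 was highest on db/db replicate 1, namely Csf3r, while 7 were highest on normal replicate 2, an array on which 25.6% of all genes and 30.4% of genes under the level were highest. Among phagocyte genes, Cx3cr1 was highest on db/db replicate 3 and Lyz1 on db/db replicate 2. The signals of Csf1r, Adgre1, Itgam, Fcgr1 and Ccr2, none of which reached the level, differed by at most 0.22 over the 6 arrays. Adgre1 and Ccr2 were highest on db/db replicate 1, and so small a range under the level says little about whether a gene followed that array. Other phagocyte genes under the level varied more. Lyz2, Ms4a7, Fcer1g, C1qb and Itgax were highest on db/db replicate 1, with ranges over the 6 arrays of 1.22, 1.05, 0.74, 0.57 and 0.31. Mrc1 was highest on db/db replicate 3 (range 0.47) and Cd163 on normal replicate 2 (range 0.31). The complement genes, which macrophages make together, were all 3 highest on db/db replicate 1. Klhl6, by contrast, differed by 0.19 among the db/db arrays and by 0.16 among the normal arrays. Similar or smaller spreads were found for Cx3cr1 (0.19 and 0.08), Was (0.10 and 0.03) and Nkg7 (0.19 and 0.17).

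**Figure D4:**
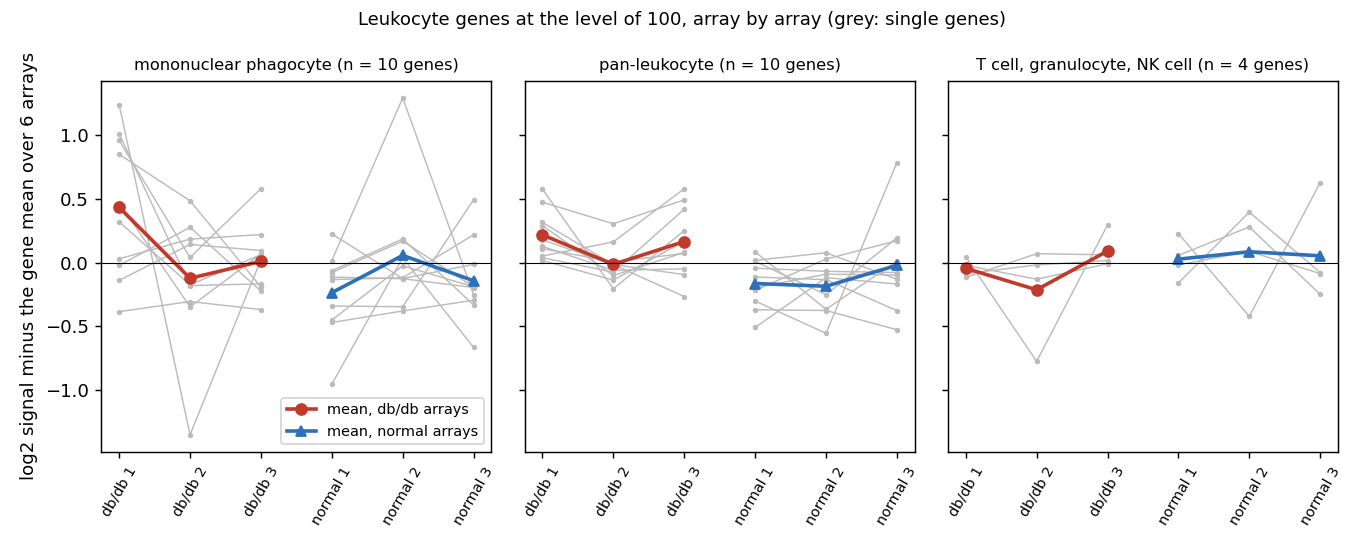
Log2 signal minus the gene's mean over the 6 arrays (vertical axis) on each array (horizontal axis), for the 24 leukocyte genes at the level of 100 (grey lines) and their mean in db/db arrays (red circles) and normal arrays (blue triangles). The mean of the 10 phagocyte genes is 0.43 on db/db replicate 1 and -0.12 on db/db replicate 2, and that of the 4 T cell, granulocyte and NK cell genes is -0.04 on db/db replicate 1 and -0.21 on db/db replicate 2.

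Genes of other cells that a glomerular sort could hold were read on the same arrays. The signal summed over the list, on the linear scale, was 2604 to 4126 in db/db arrays and 2658 to 3368 in normal arrays for the 22 phagocyte genes. For the 18 pan-leukocyte genes it was 4901 to 5883 in db/db arrays and 3885 to 4055 in normal arrays, which did not overlap. Without Klhl6 the sums just overlapped, at 2951 to 3662 in db/db arrays and 2663 to 2959 in normal arrays. The summed signal of the 6 T cell genes was 467 to 495 in db/db arrays and 468 to 562 in normal arrays, and that of the 3 B cell genes 145 to 164 in db/db arrays and 158 to 177 in normal arrays. Granulocyte genes summed to 162 to 257 in db/db arrays and 195 to 311 in normal arrays. The T cell, B cell, granulocyte and phagocyte sums overlapped between groups. For the further leukocyte genes described below, the phagocyte sum was 5070 to 6859 in db/db arrays and 3900 to 4616 in normal arrays. These did not overlap, but without Msr1 the sums were 3295 to 4115 in db/db arrays and 2733 to 3625 in normal arrays. The latter overlapped. The sum of the 18 further pan-leukocyte genes was 6742 to 7446 in db/db arrays and 5208 to 6321 in normal arrays. It did not overlap between groups, and it was not taken again without the most abundant gene of that list.

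Red cell genes had their own pattern over the arrays. The 2 alpha-globin probesets averaged 8.68, 9.94 and 9.65 in db/db arrays, against 11.39, 11.35 and 11.71 in normal arrays on the log2 scale, and the 2 beta-globin probesets averaged 11.03 ± 0.27 in db/db arrays and 12.80 ± 0.35 in normal arrays (SD, n = 3 each). Both were lower in all db/db arrays and lowest on db/db replicate 1, where phagocyte genes were highest on average. Beta-globin had 10.822 there, against 11.335 and 10.92 on db/db replicates 2 and 3. Of the 10 red cell genes listed, 3 had a single-symbol probeset (Alas2, Bpgm and Slc4a1), with summed signals of 525 to 678 in db/db arrays and 629 to 670 in normal arrays. All 3 were lowest on db/db replicate 1, Alas2 by very little (7.1191 against 7.1192 on db/db replicate 3). The 5 platelet genes of 8 listed summed to 792 to 1178 in db/db arrays and 1044 to 1428 in normal arrays, and the platelet chemokine Ppbp had 8.21, 7.06 and 8.84 in db/db arrays, against 9.34, 8.61 and 8.68 in normal arrays. Platelet genes did not share a direction, since 3 of the 5 had the higher mean in db/db GEC (median log2 change 0.0054), among them the integrin chain Itga2b, which was higher on all db/db arrays by 0.26 on average. Podocyte genes (7 of 8 listed) summed to 4692 to 4783 in db/db arrays and 5191 to 6201 in normal arrays, and proximal tubule genes (8 of 8) to 1569 to 1751 in db/db arrays and 1753 to 1778 in normal arrays. These sums were carried by Podxl and Aqp1, which endothelial cells also use. Without Podxl the podocyte sum was 1109 to 1201 in db/db arrays and 1156 to 1337 in normal arrays, and without Aqp1 the tubule sum was 645 to 777 in db/db arrays and 634 to 664 in normal arrays, so that both overlapped. At the level, 4 of 6 podocyte genes (median log2 change 0.07) and 3 of 4 proximal tubule genes (median 0.06) had the higher mean in db/db GEC. Mesangial genes (7 of 8) summed to 1114 to 1266 in db/db arrays and 972 to 1177 in normal arrays. The 3 of them at the level averaged 0.28, -0.19 and 0.21 above their own means on the db/db arrays. On the normal arrays this average was -0.28, -0.14 and 0.12. The average was thus highest on db/db replicate 1 and, within that group, lowest on replicate 2, but the genes did not share that order. Of the 3, 1 was highest of all arrays on db/db replicate 1, and 1 was lowest of the db/db arrays there. Distal nephron genes (6 of 6) summed to 649 to 794 in db/db arrays and 514 to 619 in normal arrays, higher in db/db without overlap. The 15 endothelial markers summed to 68800 to 70659 in db/db arrays and 67963 to 68680 in normal arrays. Values kept as log2 cannot hold a linear signal of 0, so the absence of such signals does not show that a gene was detected. The part of other cells in the leukocyte values was not tested.

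A wider list of 99 further leukocyte genes was read for comparison. Of the 91 with a single-symbol probeset, 39 (42.9%) reached the level of 100, beside 44.4% of the 54 above. None passed the adjusted threshold of limma (smallest adjusted p = 0.717, for the B cell kinase Blk) and 5 (12.8%) had an unadjusted p under 0.05 in either direction, against 6.57% of all genes at the level. Their median log2 change was 0.07, with all db/db arrays above all normal arrays in 6 of 39 (15.4%, against 7.39% of all genes at the level) and below in 0 (against 5.92%). Gmfg, a regulator of actin branching in haematopoietic and endothelial cells, had log2 signals of 11.73, 12.01 and 11.93 in db/db arrays, against 11.46, 11.24 and 11.69 in normal arrays. Msr1, the macrophage scavenger receptor, had 9.90, 11.80 and 11.24 in db/db arrays, against 10.67, 8.10 and 10.11 in normal arrays, so that the groups overlapped and db/db replicate 1 was the lowest db/db array. Of the 10 further phagocyte genes at the level, all but Msr1, that is 9, were higher on db/db replicate 1 than on db/db replicate 2. The same held for 6 of the 10 phagocyte genes of the first list and 50.6% of all genes at the level. Of the 10 further genes, 3 were highest of all arrays on db/db replicate 1 and 4 on db/db replicate 3. They averaged 0.15 above their own means on replicate 1 and 0.27 on replicate 3. Of the 39 genes, 8 (20.5%) were highest of all arrays on db/db replicate 1, against 17.6% of all genes at the level, and 14 (35.9%) had replicate 1 highest and replicate 2 lowest within the db/db group, against 18.9% of all genes at the level.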

How the data were processed

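RNA of 3 db/db and 3 normal samples of sorted GEC had been hybridised to 1 Affymetrix Mouse Gene ST array each. The signals were deposited as log2 values, which the authors had normalised between arrays (RMA in GeneSpring per the methods, MAS5 alone in the submitters' processing notes). They were used unchanged, so a shift shared by all probesets of an array could not be seen, and precision is limited by having 6 arrays. Groups came from the genotype labels. Of 35557 probesets, 21789 had a single gene symbol in the platform annotation, 1621 had several and 12147 none. The members and all gene lists were chosen with earlier results of these data known.

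db/db and normal arrays were compared with limma 3.58.1 (lmFit and eBayes) in R 4.3.3, two-sided, over the 20661 probesets whose linear signal reached 100 in no fewer than 3 arrays, with Benjamini-Hochberg adjustment over all of them, and leukocyte genes were read from that fit. The steps were tested on simulated data. Probesets with no gene listed stayed in the fit. All p-values measure the spread between these samples, which may in part be technical. No 2 arrays were duplicates. Values per array were given for every member at the level and for Ptprc, Csf1r, Adgre1, Cd79a and S100a8 whatever their level, with Lyz2 and Cd53 added as the members nearest below the threshold, and other lists were given by counts, summed linear signals and, for some, genes among their 2 most abundant. Podxl, Aqp1, Klhl6, Msr1, Itga2b and the globins were named beside those sums after their values were seen. Promoter sequences were RefSeq's, for 41 members. Alternatives changed the level, the normalisation, the variance model, the probeset rule, the arrays included and the replicate number as a block. Leaving out each array for the count at the level, and the 2 alternatives of the array-to-array counts that use all measured members or leave out arrays, were chosen after seeing the data.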

Additional observations from a re-analysis of the deposited data

How the results depend on the processing

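No leukocyte gene passed the adjusted threshold under any alternative run, and the count at the level of 100 ran between 22 and 24 when each array was left out, whereas 8 reached 200 and 42 reached 50 in 3 or more arrays. At the level of 200 the median log2 change was 0.35, 4 genes had all db/db arrays above all normal arrays and 3 were highest on db/db replicate 1. With 1 probeset per gene, 1 gene passed the adjusted threshold, and 2 did with the mean of all probesets of a gene; fewer features were tested there, and none was a leukocyte gene. Genes with all db/db arrays below all normal arrays numbered 0 after quantile normalisation, 2 with no level filter (Cd79a was added) and 1 to 2 when each array was left out (Cd8a was added without normal replicate 3). Of all measured leukocyte genes 21 were highest on db/db replicate 1.

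The same replicate number did not pair the samples: correlations of deviations for replicates 1 to 3 were -0.0039, 0.035 and -0.030. With the replicate number as a block (replicate block) 0 probesets passed, the smallest adjusted p of a leukocyte gene was 0.573, 3 leukocyte genes (Klhl6, Lcp1 and S100a9) had an unadjusted p under 0.05 in place of 5, and the median log2 change was 0.10.

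Of the 24 genes at the level, 12 kept the sign of their log2 change under all alternatives, Klhl6, Aif1, Cd68 and Cd14 among them, and the 12 that did not had changes of at most 0.29 in size. The sign turned for Cd37 with array weights (-0.011), for Itgb2 after quantile normalisation (-0.010) and median centring (-0.0051), and for Nkg7 after quantile normalisation (-0.016) and median centring (-0.0071). When each array was left out in turn, the log2 change lay between -0.13 and 0.16 for Cd37, -0.094 and 0.10 for Itgb2, -0.22 and 0.45 for Plek, -0.086 and 0.14 for Cybc1, -0.69 and 0.60 for Tyrobp, and -0.11 and 0.14 for Lyz1. It lay between -0.013 and 0.17 for Fcgr3, -0.014 and 0.33 for Mpeg1, -0.21 and 0.065 for Cd3e, -0.20 and 0.067 for Cd8a, -0.57 and 0.026 for S100a9, and -0.030 and 0.071 for Nkg7. The cause was not tested. Members near 100 lie where olfactory and vomeronasal receptors also pass, which limits what their level can show.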
